A study of Macaca mulatta with 2 samples.

Results

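The genes of the nuclear-encoded respiratory chain were followed in RNA-seq of the untreated rhesus macaque optic nerve. A gene was a member if its symbol began with NDUFA, NDUFB, NDUFC, NDUFS, NDUFV or UQCR, began with COX followed by a digit between 4 and 8, or was *SDHA*, *SDHB*, *SDHC* or *SDHD*. This rule took 66 of the 16684 genes in the table, with no use of their measured values. The same rule covers symbols that begin with ATP5, but none of the listed genes did, so the ATP synthase was not analysed here. It also took 7 complex I assembly factors, *NDUFA4* and its paralog *NDUFA4L2*, which are placed here with complex IV, and *COX7A2L*, a factor that joins complexes III and IV into supercomplexes. *CYC1*, the cytochrome c1 subunit of complex III, is not matched by the rule and is given with the electron carriers. A further 10 genes of the complexes, among them *COX5B*, *COX6A1*, *COX7A2*, *UQCRB* and *UQCRFS1*, were not analysed here.

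The data hold 1 condition, wild-type *Macaca mulatta* optic nerve without treatment, in 2 libraries of total RNA named Rep1 and Rep2. The methods of the study give 1 adult male, from which the nerves were donated post mortem, as the source, whereas the deposited design gives 2 animals, so the spread between the libraries is that of nerves of 1 animal or of 2. The libraries were made with a kit that amplifies cDNA from very small amounts of RNA. Each value is a TPM, the share of a gene in all length-corrected reads of its library, so that levels of different genes can be compared within a library. No groups could be compared, as an exact two-sided sign test over the 2 libraries has 0.5 as its smallest p, so all differences between the libraries are descriptions.

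The respiratory chain is a set of protein complexes in the inner mitochondrial membrane. Complex I oxidizes NADH and complex II oxidizes succinate, and both pass electrons to ubiquinone. Complex III carries them on to cytochrome c and complex IV to oxygen. Complexes I, III and IV pump protons as they do so, and the ATP synthase uses the resulting gradient. Most subunits are encoded in the nucleus and a few core subunits of complexes I, III and IV in mitochondrial DNA. Retinal ganglion cell axons depend on this pathway, and inherited defects of mitochondrially encoded complex I subunits cause Leber hereditary optic neuropathy. The RNA of an optic nerve comes from its glia and vessels and from little of the neurons, whose cell bodies lie in the retina.

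The libraries differed in depth and in content. One read in Rep1 counted for as much TPM as 17.2 reads in Rep2, a factor found from the ratios of the 10168 genes above 0 in both libraries, of which 99.9% then gave whole read numbers. Those read numbers are the smallest that fit, and they summed to 651121 in Rep1 and 8858237 in Rep2. Genes listed at 0 numbered 6425 (38.5%) in Rep1 and 2082 (12.5%) in Rep2. All 8 oligodendrocyte markers were lower in Rep1, where they summed to 46086 TPM against 212682 TPM in Rep2, whereas 16 photoreceptor markers summed to 4250 TPM in Rep1 and 32.6 TPM in Rep2. The defining oligodendrocyte and astrocyte genes *MBP* and *GFAP* were above 0 in both libraries. Scaling by the median of ratios moved Rep1 by 1.19 on the log2 scale against Rep2, and results are given relative to this shift where it matters.

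The place of a symbol in the annotation bears on which reads can be counted for it, so that of *COX7C* is given first. *COX7C* encodes a small subunit of complex IV that every mitochondrion of mammals contains. The RefSeq annotation of the Mmul_10 assembly, the build the authors used, gives it a model of a single exon inside *COMMD1*, which lies on the opposite strand. Its RefSeq transcript also aligned to another place, as 2 exons, where the annotation has another gene, without a symbol, whose product is also named cytochrome c oxidase subunit 7C and which is not in the table. The level listed under *COX7C* was 0 TPM in Rep1 and 9.002 TPM in Rep2. The other complex IV subunits, leaving out the tissue isoforms, stood at 64.4 TPM or more in Rep2. *COMMD1* itself was at 3.99 TPM (Rep1) and 61.8 TPM (Rep2). The authors counted on RefGene annotation, whose models were not read here and may differ from those of RefSeq. Whether reads of *COX7C* were assigned elsewhere was not tested.

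Promoters of 4 members are shown because the results further on turn on these genes. *SDHB* and *COX5A* were higher in Rep1, *COX8A* was higher in Rep2, and *SDHA* was higher in Rep2 as deposited but not after scaling by the median of ratios. Each line gives the 120 bases before the annotated transcript start in RefSeq, Mmul_10, on the strand of the gene and 5′ to 3′. Capitals mark CCGGAAG, a core ETS site of the kind bound by the nuclear respiratory factor GABP, or GCGCANGCG, a core NRF1 site, on either strand.
SDHB promoter, chr1:207711467-207711586, plus strand: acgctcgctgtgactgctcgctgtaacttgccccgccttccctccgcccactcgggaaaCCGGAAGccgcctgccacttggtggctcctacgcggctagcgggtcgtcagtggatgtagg
COX5A promoter, chr7:51983910-51984029, minus strand: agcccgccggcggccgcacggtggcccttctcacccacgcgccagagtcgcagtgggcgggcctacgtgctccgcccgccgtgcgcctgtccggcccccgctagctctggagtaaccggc
SDHA promoter, chr6:195254-195373, plus strand: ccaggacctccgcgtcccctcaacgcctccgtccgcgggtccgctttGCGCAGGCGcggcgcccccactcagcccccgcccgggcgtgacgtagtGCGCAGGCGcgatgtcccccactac
COX8A promoter, chr14:10577642-10577761, minus strand: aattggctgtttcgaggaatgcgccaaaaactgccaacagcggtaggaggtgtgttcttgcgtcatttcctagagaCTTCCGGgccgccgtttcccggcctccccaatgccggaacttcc
*SDHA* held 2 NRF1 strings, at -73 and -25 from the start, *SDHB* and *COX8A* held 1 ETS string each, at -61 and -44, and *COX5A* held none in this window.

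As a group the respiratory chain genes were abundant in both libraries. Of the 66 members, 63 were above 0 in at least 1 library and 57 in both. *COX6A2*, *COX6B2* and *COX7B2* were listed at 0 in both, and *NDUFAF1*, *NDUFAF6*, *NDUFAF7*, *NDUFS5*, *COX4I2* and *COX7C* in Rep1 only. The members summed to 2944 TPM in Rep1, or 0.294% of the library, and to 9622 TPM in Rep2, or 0.962%. Their mean sum was 6283 ± 4722 TPM (SD, *n* = 2), a spread nearly as wide as the mean. The median member stood at 22.0 TPM (Rep1) and 108 TPM (Rep2), where the median listed gene stood at 2.09 and 7.93 TPM. Over the mean of the libraries, the median member was at percentile 86.8 of the 14693 genes above 0, and 54 of the 63 members above 0 exceeded the median gene.

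The highest mean levels were those of *NDUFA4* (504 ± 451 TPM, SD, *n* = 2), *COX4I1* (420 ± 413 TPM), *COX5A* (294 ± 237 TPM), *NDUFB8* (261 ± 222 TPM) and *COX8A* (233 ± 253 TPM). The spread of each was about as large as the mean. It includes the shift between the libraries that genes share, so it cannot judge the order of genes within a library. *NDUFA4* exceeded *COX4I1* in Rep1 (185 and 128 TPM) and in Rep2 (822 and 711 TPM). *NDUFB8* exceeded *COX8A* in Rep1 (103 and 54.5 TPM) and slightly in Rep2 (418 and 412 TPM), whereas the place of *COX5A* changed. Ranks among all members depended on the library. *NDUFA4* ranked 3 among the members in Rep1 and 1 in Rep2, and *COX4I1* ranked 5 and 2. *COX5A*, which led in Rep1, ranked 28 in Rep2, and *SDHB* went from 2 to 32. The lowest members above 0 were *NDUFS5* (0.632 TPM on average), *COX7C* (4.50 TPM), *COX7A2L* (5.17 TPM), *NDUFV3* (5.62 TPM) and *NDUFAF7* (5.85 TPM). Across the 57 members above 0 in both libraries, log2 TPM correlated between the libraries with Pearson r = 0.650 and a Spearman coefficient of 0.630, given as a description over genes that share the same 2 libraries.

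**Figure D1:**
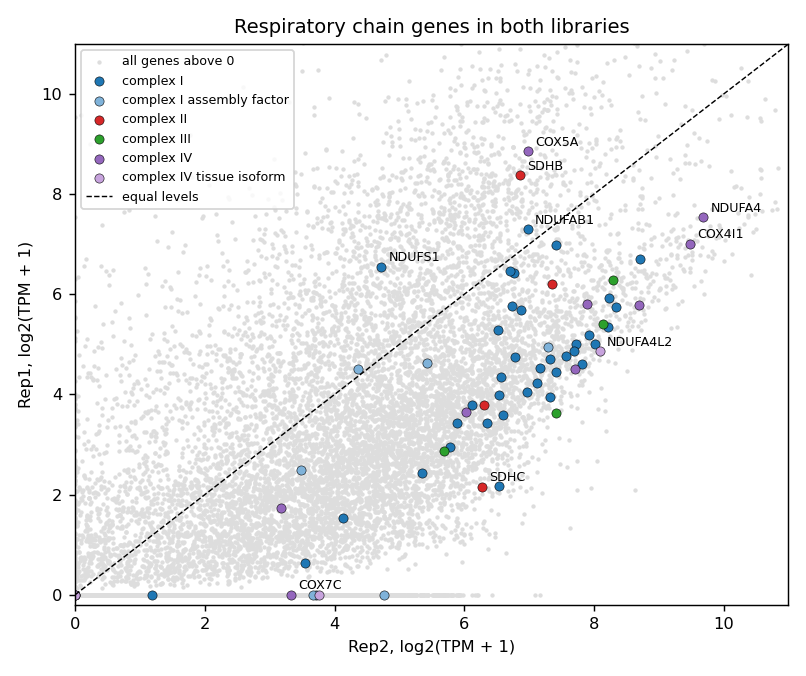
Levels in Rep1 (vertical axis) and Rep2 (horizontal axis) as log2(TPM + 1), with each respiratory chain gene as a colored point by complex, *COX7A2L* among those of complex IV, and other genes in grey. The dashed line marks equal levels, genes above 11 on either axis fall outside the plot, and 58 of the members lie below the line with *COX5A*, *SDHB*, *NDUFS1*, *NDUFAB1* and *NDUFAF5* above it.

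Most members were lower in Rep1 than in Rep2. Taken as log2(TPM + 1), where low genes show less than their full change, the median difference (Rep1 minus Rep2) was -2.60 over the 63 members above 0, against -1.07 over all 14693 genes. Of these members, 52 (82.5%) were at least 2-fold lower in Rep1, where 51.3% of all genes were. *COX5A*, *NDUFS1* and *SDHB* were at least 2-fold higher in Rep1 (4.76% of the members), where 14.8% of all genes were, and 8 members differed by less. After scaling by the median of ratios the median was -1.44 over the members and -0.38 over all genes. Then 42 members (66.7%) were at least 2-fold lower and 5 at least 2-fold higher in Rep1, beside 33.8% and 23.7% of all genes, the 2 added to the higher ones being *NDUFAB1* and *NDUFAF5*. Scaling also turned the sign of 7 members that had been lower in Rep1, among them *NDUFS4*, *NDUFV1*, *NDUFV2*, *NDUFAF2*, *NDUFAF4* and *SDHA*. Among the 2902 genes with a mean between 31.0 and 135 TPM, the middle range of the members, the median difference was -1.22, with 52.8% at least 2-fold lower and 23.5% at least 2-fold higher in Rep1. The 32 members in that range had a median of -2.57, and 27 of them (84.4%) were at least 2-fold lower in Rep1. In bulk tissue, fewer cells of a type and less RNA per cell cannot be told apart, and the oligodendrocyte markers, with a median difference of -2.36, moved in the same direction as the members. Their part in the result was not tested.

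The depth behind the Rep1 values was small. For the 57 members above 0 in both libraries, Rep1 rested on at least 1 to 269 reads and Rep2 on at least 41 to 7641. In Rep1, 14 members had a smallest read number of 3 or fewer and 18 had one of 20 or more. The true read numbers are whole multiples of these and are unknown, so the smallest numbers do not rank members by depth. In Rep1 *COX4I1* had 7 at 128 TPM, whereas *COX6C* had 32 at 55.3 TPM. Amplified copies of the same cDNA are not independent, so the read numbers bound counting error only.

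**Figure D2:**
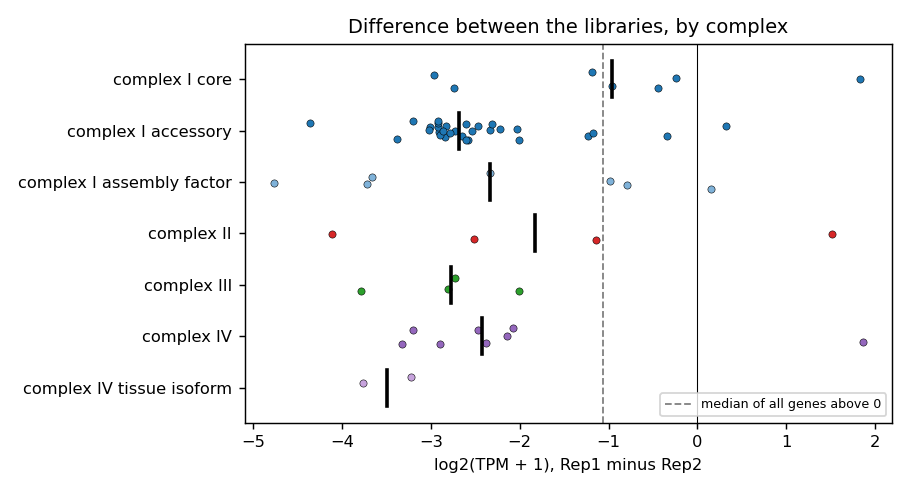
Difference between the libraries in log2(TPM + 1), Rep1 minus Rep2, for each member above 0 by complex (points) with the median of each group (black bars); *COX7A2L* is not drawn. The dashed line is the median of all genes above 0, at -1.07. The accessory subunits of complex I range from -4.36 to 0.33 with a median of -2.69, and those of the core from -2.96 to 1.83 with a median of -0.96.

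Complex I was represented by 37 subunits, 7 of the catalytic core and 30 accessory. The core subunits carry the flavin and the iron-sulfur clusters along which electrons travel from NADH. They summed to 466 TPM in Rep1 and 932 TPM in Rep2. The 30 accessory subunits, which surround and stabilize the core, summed to 891 and 4282 TPM. The share of the core in the TPM of all members was thus 15.8% in Rep1 and 9.69% in Rep2, and that of the accessory subunits 30.3% and 44.5%. The median difference was -0.96 for the core and -2.69 for the accessory subunits. After scaling by the median of ratios the core reached 0.22, so its direction depended on the scaling, while the accessory subunits stayed at -1.58.

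Within the core, *NDUFS1*, which encodes the largest subunit and holds iron-sulfur clusters of the NADH-oxidizing arm, stood apart. Its level was 92.6 TPM in Rep1 and 25.3 TPM in Rep2 (smallest read numbers 213 and 1000). In Rep2 it was the lowest of the 7. *NDUFS1* overlaps *EEF1B2*, a gene on the opposite strand, at 21.1 TPM (Rep1) and 95.3 TPM (Rep2), so the overlapping gene differed in the other direction. *NDUFV1*, the FMN-binding subunit, was at 87.2 TPM (Rep1) and 103 TPM (Rep2). *NDUFV2*, an iron-sulfur partner of *NDUFV1*, was at 53.8 TPM (Rep1) and 105 TPM (Rep2). *NDUFS3*, another subunit of the core, was at 50.5 and 116 TPM. *NDUFS7* and *NDUFS8* hold the last clusters before ubiquinone. *NDUFS7* was at 35.4 TPM (Rep1) and 243 TPM (Rep2), the highest core subunit there. *NDUFS8* was at 20.9 and 170 TPM. Both were thus far lower in Rep1, with differences of -2.74 and -2.96, whereas *NDUFV1* lay within 2-fold, at -0.24.

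The accessory subunits mostly differed in the same direction. Of the 30, 28 were at least 2-fold lower in Rep1, none was 2-fold higher, and 24 were at least 2-fold lower after scaling, with 1 then 2-fold higher. Of all genes, 51.3% were at least 2-fold lower and 14.8% at least 2-fold higher as deposited. After scaling these shares were 33.8% and 23.7%. The accessory subunits that lay within 2-fold as deposited were *NDUFAB1* and *NDUFS4*. *NDUFAB1* is the mitochondrial acyl carrier protein, which also serves fatty acid and lipoic acid synthesis outside complex I. It was at 157 TPM in Rep1, the highest accessory subunit there, and at 125 TPM in Rep2. *NDUFS4*, a subunit needed for the late steps of complex I assembly, was at 84.8 and 108 TPM. *NDUFB8*, in the membrane arm, was the highest accessory subunit in Rep2, at 418 TPM, against 103 TPM in Rep1. *NDUFA7* had the largest difference of the accessory subunits, -4.36, from 3.52 TPM in Rep1, which rested on a smallest read number of 1, and 91.8 TPM in Rep2. The low end held *NDUFV3* at 0.548 and 10.7 TPM, *NDUFB3* at 1.88 and 16.5 TPM, and *NDUFS5*, which was listed at 0 in Rep1 and at 1.26 TPM in Rep2. All others lay between 3.52 and 157 TPM in Rep1 and between 39.8 and 418 TPM in Rep2.

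The 7 complex I assembly factors, which help to build the complex and are not part of it, were less abundant than the subunits. They summed to 80.2 TPM in Rep1 and 277 TPM in Rep2. Their median was 4.62 TPM in Rep1 and 19.6 TPM in Rep2, beside 25.3 and 116 TPM for the 37 subunits. *NDUFAF3* was the highest, at 30.0 TPM (Rep1) and 155 TPM (Rep2). *NDUFAF1*, a core component of the intermediate assembly machinery, was listed at 0 in Rep1 and at 26.2 TPM in Rep2. Its difference on the log2(TPM + 1) scale was the largest of all members (-4.77), but with a 0 in Rep1 the pseudocount sets its size. *NDUFAF6* and *NDUFAF7*, an arginine methyltransferase, were also listed at 0 in Rep1, and stood at 12.2 and 11.7 TPM in Rep2. *NDUFAF5* was at 21.9 TPM (Rep1) and 19.6 TPM (Rep2), nearly equal levels.

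Complex II, the succinate dehydrogenase that also belongs to the citric acid cycle, consists of 4 nuclear-encoded subunits. As deposited, its level summed over the 4 was nearly equal in the libraries, at 422 TPM (Rep1) and 432 TPM (Rep2) (427 ± 7.16 TPM, SD, *n* = 2), but scaling by the median of ratios gave 637 in Rep1 and 286 in Rep2. The subunits themselves were unequal. *SDHB*, the iron-sulfur subunit, was at 333 TPM (Rep1) and 116 TPM (Rep2), on at least 227 and 1355 reads. *SDHA*, the flavin subunit that binds succinate, was at 72.9 and 162 TPM. *SDHC* and *SDHD* anchor the complex in the membrane and bind heme and ubiquinone. *SDHC* was at 3.46 TPM in Rep1, on a smallest read number of 2, and at 76.2 TPM in Rep2. *SDHD* was at 12.8 and 78.1 TPM. In Rep2 the highest of the 4 subunits exceeded the lowest by 2.13 times, the narrowest range of the complexes, and in Rep1 by 96.2 times. Complex II made up 14.3% of the members' TPM in Rep1 and 4.49% in Rep2, with *SDHB* alone behind most of it in Rep1. Its mean sum became 462 TPM after scaling by the median of ratios and 536 TPM without the 10 most abundant genes, both beyond the narrow SD of the sum.

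Complex III was represented by *UQCRC1*, *UQCRC2*, *UQCRQ* and *UQCRH*. All 4 were at least 2-fold lower in Rep1 as deposited, as 51.3% of all genes were. They summed to 137 TPM in Rep1 and 816 TPM in Rep2. *UQCRC1* and *UQCRC2* encode the large core proteins on the matrix side. *UQCRC1* was at 41.6 TPM (Rep1) and 282 TPM (Rep2). *UQCRC2* was at 11.3 and 169 TPM, a difference of -3.79. *UQCRQ*, a small subunit close to cytochrome b, was the highest of the complex, at 77.6 and 314 TPM. *UQCRH*, the hinge protein that contacts cytochrome c1, was at 6.36 and 50.7 TPM. After scaling, 3 of the 4 were at least 2-fold lower in Rep1, beside 33.8% of all genes. *UQCRQ* was the other, at -0.82.

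Complex IV, cytochrome c oxidase, was the complex with the highest single members. Its 8 subunits, with *NDUFA4* counted here and the tissue isoforms left out, summed to 918 TPM in Rep1 and 2591 TPM in Rep2. *NDUFA4*, first assigned to complex I and later found to belong to complex IV, was at 185 TPM (Rep1) and 822 TPM (Rep2), on at least 100 and 7641 reads. *COX4I1*, the subunit through which ATP inhibits the enzyme, was at 128 and 711 TPM. *COX5A*, a subunit on the matrix side that contacts *COX4I1*, ran against the others. It was at 462 TPM (Rep1) and 126 TPM (Rep2), on at least 269 and 1263 reads, the largest difference toward Rep1 of all members (1.86). The remaining subunits with values in both libraries were higher in Rep2. *COX8A* was at 54.5 TPM (Rep1) and 412 TPM (Rep2). *COX6C* was at 55.3 and 237 TPM. *COX6B1*, which faces the intermembrane space, was at 21.6 and 208 TPM. *COX7B* was at 11.5 and 64.4 TPM. In Rep1 *COX5A* exceeded every other member.

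*COX5A*, *NDUFS1* and *SDHB* were thus the members 2-fold higher in Rep1, each in a different complex. They stayed higher after scaling by the median of ratios, at 3.05, 2.99 and 2.701, and without the 10 most abundant genes, at 1.69, 1.67 and 1.35. *SDHB* has 1 near-identical copy elsewhere in the genome and *NDUFS1* has none, and *COX5A* has none at 95% identity.

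Several complex IV subunits exist as a common form and a paralog used in particular tissues, and within a library the 2 forms can be set side by side without a shift between the libraries. The common form was the higher in each of the 4 pairs and in both libraries. *COX4I2*, a lung and hypoxia form of subunit 4, was listed at 0 in Rep1 and at 12.6 TPM in Rep2, where *COX4I1* exceeded it 56.5-fold and it made up 1.74% of the pair. *COX6B2*, a testis form, and *COX7B2*, also known from testis, were listed at 0 in both libraries. Their common partners *COX6B1* and *COX7B* had the levels given above. *COX6A2*, a form of heart and skeletal muscle, was listed at 0 in both libraries, and its common partner was not analysed here. Of the striated muscle markers, 9 were listed and 6 were above 0, together at 12.5 TPM (Rep1) and 61.04 TPM (Rep2), with *MYH1*, *MYH2* and *MB* at 0 in both.

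*NDUFA4L2* was the tissue form with a high level. It encodes a paralog of *NDUFA4* that is induced by hypoxia-inducible factor and is known from pericytes. It was at 28.0 TPM (Rep1) and 271 TPM (Rep2), on at least 14 and 2327 reads, at percentile 92.6 on average. *NDUFA4* exceeded it 6.60-fold in Rep1 and 3.03-fold in Rep2, and on the log2(TPM + 1) scale by 2.14 ± 0.77 (SD, *n* = 2). *NDUFA4L2* made up 13.2% of the pair in Rep1 and 24.8% in Rep2. The 8 pericyte markers summed to 82.9 TPM in Rep1 and 342 TPM in Rep2, with 5 of 8 at least 2-fold lower and 1 at least 2-fold higher in Rep1. These counts lay near the shares over all genes, 51.3% and 14.8%. The part of the pericyte markers in the level of *NDUFA4L2* was not tested. Among them *RGS5* was at 47.7 and 160 TPM, *PDGFRB* at 4.16 and 61.3 TPM, and *KCNJ8*, which went the other way, at 17.7 and 0.953 TPM. *NDUFA4L2* overlaps *SHMT2* on the opposite strand, which was at 21.9 TPM (Rep1) and 16.01 TPM (Rep2). *COX7A2L*, the supercomplex factor, was at 2.32 TPM (Rep1) and 8.02 TPM (Rep2).

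The annotation of the members was read from RefSeq for Mmul_10, and many respiratory chain genes have processed copies in the genome. Of the 66 members, 17 had at least 1 further place in the genome that matched 50% or more of the longest transcript at 95% identity or more. The most were found for *COX7C*, with 5, for *SDHC*, with 4, and for *NDUFB8*, with 3. The level of these members is uncertain, since reads that fit several places could have been split or dropped, and the handling of such reads is not given in the sources used here. Their median in Rep2 was 96.3 TPM (range 1.26 to 711), with 4 of 17 under 20 TPM. The 46 members above 0 without such a copy had a median of 132 TPM (range 10.1 to 822), with 6 under 20 TPM. The ranges overlapped almost fully. The median difference between the libraries was -2.47 with a copy and -2.69 without.

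Annotation as a single exon in RefSeq went with low levels in 2 of 3 cases. The RefGene models on which the authors counted were not read here and may differ. Besides *COX7C*, *COX7A2L* was annotated as a single exon, at chr2:50967740-50968859 on the minus strand, while its transcript aligned with 3 exons to chr13:66441983-66455162, where the annotation has a gene without a symbol that encodes a product of the same family and is not in the table. The place on chromosome 2 also carries a pseudogene in the annotation. *SDHD* was annotated at 2 places, as a single exon at chr13:89413680-89414946 on the plus strand and as 4 exons at chr14:105240432-105250200, so its 78.1 TPM in Rep2 cannot be given to one of these places. *NDUFS5*, at chr1:185559692-185564978 on the minus strand, has 3 exons and a second locus of 3 exons on an unplaced scaffold of chromosome 1, at 99.1% identity, under a gene without a symbol that is not in the table. These 4 members include the 3 lowest above 0 in mean TPM. Without members that have a copy or a single-exon model, a choice made after seeing the data, the median difference over the members was -2.69.

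**Figure D3:**
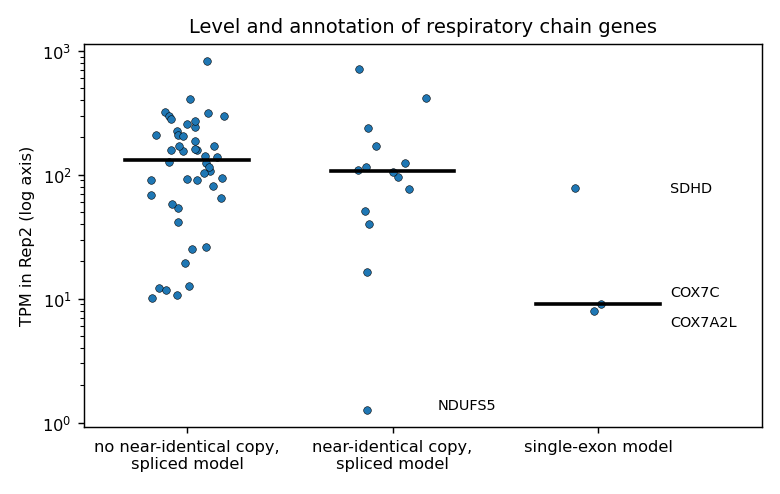
TPM in Rep2 on a log axis for members above 0, with the median as a black line. Groups follow RefSeq, which may differ from the models used for counting. They are spliced models without a near-identical copy, spliced models with 1 or more, and single-exon models. The medians are 132, 107 and 9.002 TPM, and *NDUFS5*, *COX7A2L* and *COX7C* are the lowest points.

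Of all members, 26 overlap another annotated gene, 24 of them on the opposite strand. SMARTer libraries of this kind do not mark strand, so reads from such a pair cannot be told apart where they overlap. Between transcript length and the difference, the 63 members had Pearson r = 0.072 and a Spearman coefficient of -0.031, beside 0.160 and 0.183 over all genes, all as descriptions.

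Respiratory chain promoters are known for binding sites of NRF1, GABP and YY1. In the window from 250 bases before to 50 bases after the start, CCGGAAG occurred on either strand in 13 of 66 member promoters (19.7%, 95% exact binomial interval 10.9% to 31.3%), and in 10.6% of the 16679 promoters of listed genes. GCGCANGCG occurred in 11 (16.7%, interval 8.62% to 27.9%) and in 8.97% of all. AAGATGGCG, a YY1-like string, occurred in 2 (3.03%) and in 1.56% of all. The lower bounds of the first 2 intervals lay close to the shares over all promoters. Matches of different motifs may overlap, as CCGGAAG ends with the letters that begin AAGATGGCG, and 41 member promoters held none of the 3. Among those 41 are *COX7C*, *COX7A2L* and *SDHD*, whose windows were taken at their single-exon models and may not be the promoters of the spliced genes. The median GC content was 57.8% for member promoters and 60.0% for all. Members with any of the 3 strings had a median difference between the libraries of -2.31 over 25 genes, and those without one -2.77 over 38. These matches are letters in a window and do not show that a factor binds.

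Genes that serve the chain were looked at beside it. The 16 electron carriers and feeders, which bring electrons to ubiquinone or cytochrome c or make ubiquinone, resembled the members, with a median difference of -2.66, 13 of them at least 2-fold lower in Rep1 and none 2-fold higher. *CYCS*, cytochrome c, was at 30.1 TPM (Rep1) and 108 TPM (Rep2), and *CYC1* at 38.1 and 171 TPM. *ETFB* and *ETFA*, the subunits of the electron transfer flavoprotein, went different ways. *ETFB* was at 18.7 TPM (Rep1) and 229 TPM (Rep2), whereas *ETFA* was at 150 and 83.1 TPM. The 19 assembly factors of complexes II to V had a median difference of -1.93, with 15 at least 2-fold lower in Rep1 and none 2-fold higher. Beside the counts of both lists, 51.3% of all genes were at least 2-fold lower and 14.8% at least 2-fold higher in Rep1. *COX14* was at 7.13 TPM (Rep1) and 123 TPM (Rep2), *SDHAF2*, which helps to attach the flavin to *SDHA*, at 29.2 and 106 TPM, and *COX11*, a copper carrier, at 19.7 and 16.03 TPM.

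The inner membrane carriers and outer membrane porins ran the other way. Of 6 listed genes, 5 were at least 2-fold higher in Rep1 and none was 2-fold lower, with a median difference of 1.35, and they summed to 4755 TPM in Rep1 and 1110 TPM in Rep2. *SLC25A5* and *SLC25A4*, the adenine nucleotide translocators that exchange ADP for ATP, were at 2341 TPM (Rep1) and 156 TPM (Rep2) and at 557 and 57.0 TPM. *VDAC2*, a porin, was at 882 and 305 TPM. *SLC25A3*, the phosphate carrier, was the exception, at 102 TPM (Rep1) and 180 TPM (Rep2), and its sign is turned by the median of ratios, whose shift of 1.19 exceeds its difference of -0.81. The 14 genes of mitochondrial biogenesis and mitochondrial DNA expression were split, with 7 at least 2-fold higher and 6 at least 2-fold lower in Rep1. The higher ones included *PPARGC1A*, a coactivator of mitochondrial genes, at 307 TPM (Rep1) and 15.05 TPM (Rep2), *NRF1* at 81.9 and 3.03 TPM, and *YY1* at 353 and 61.8 TPM. *POLRMT*, the RNA polymerase of mitochondria, was listed at 0 in Rep1 and at 50.9 TPM in Rep2. The background for these counts is that given above, 51.3% of all genes at least 2-fold lower and 14.8% at least 2-fold higher in Rep1.

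**Figure D4:**
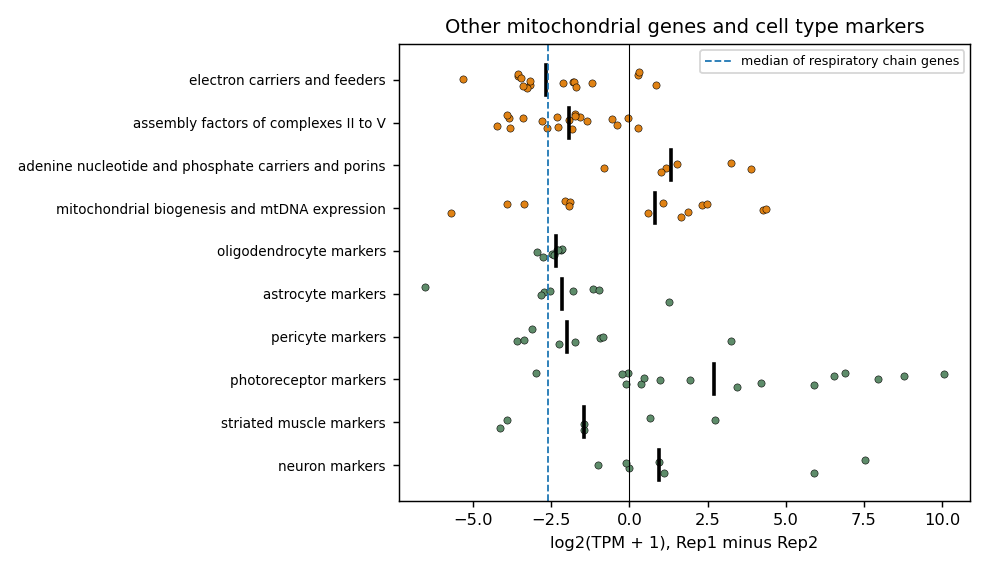
Difference between the libraries in log2(TPM + 1), Rep1 minus Rep2, for mitochondrial gene lists (orange) and cell type markers (green), each point a gene above 0 and each black bar a median. The dashed line marks the median of the respiratory chain genes, -2.60. Electron carriers lie around it, at -2.66, as oligodendrocyte markers do, at -2.36, whereas carriers and porins (1.35) and photoreceptor markers (2.69) lie to the right of 0.

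The markers of cell types moved with these results as follows. The astrocyte markers had a median difference of -2.17, with 6 of 8 at least 2-fold lower and 1 higher in Rep1, and summed to 1148 TPM in Rep1 and 7342 TPM in Rep2. The pericyte markers had a median of -1.99, with 5 of 8 at least 2-fold lower, 1 higher and 3 listed at 0 in Rep1. As background for all marker counts, 51.3% of all genes were at least 2-fold lower and 14.8% at least 2-fold higher in Rep1. Of all listed genes, 38.5% were at 0 in Rep1, and the pericyte counts lay near these shares. The photoreceptor markers had a median of 2.69, with 9 of 16 at least 2-fold higher and 1 lower in Rep1, led by *GNAT1*, rod transducin, at 2763 TPM (Rep1) and 1.56 TPM (Rep2). Of the cone markers, *PDE6H* and *ARR3* were listed at 0 in Rep1, whereas *GNAT2*, cone transducin, was at 199.9 TPM (Rep1) and 0.687 TPM (Rep2). Neuron markers summed to 1928 TPM in Rep1 and 48.7 TPM in Rep2, with 3 of 7 at least 2-fold higher and none 2-fold lower in Rep1. *SNAP25* and *SYT1*, genes of the synapse, made up nearly all of that, at 1122 and 769 TPM in Rep1 against 4.99 and 11.8 TPM in Rep2, whereas the axonal neurofilament gene *NEFL*, named after its values were seen, was at 3.63 and 3.65 TPM. Both libraries carry the label of the same tissue and treatment. The part of these cell types in the levels of the respiratory chain genes, in either direction, was not tested.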

How the data were processed

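Total RNA of untreated macaque optic nerves (1 condition, 2 libraries) was sequenced by the authors. Per the labels and the methods of the study, reads were trimmed with Trim Galore 0.6.6, checked with FastQC 0.11.9, aligned with STAR 2.7.1a to Mmul_10, and counted with featureCounts 1.5.3 on RefGene annotation. The authors then normalized the counts to TPM in R, and these deposited TPM values sum to 1000000 in each library. Gene lengths, the use of strand and the handling of reads with several alignments are not given in the sources used here. The columns could not be paired with single samples, so both were used as replicates of the condition. No column was left unused.

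Levels were taken as deposited. Differences were taken as log2(TPM + 1) in Rep1 minus Rep2 over genes above 0 in at least 1 library, and 2-fold was the limit for counts. Relative depth came from the ratios of each gene's values, written as the smallest whole numbers with a product under 100000000 at a tolerance of 1e-12. The total depth is unknown. Coordinates, promoters and transcripts were read from RefSeq for Mmul_10, in which all listed symbols were found. Copies were searched with blastn 2.17.0 and spliced alignments with minimap2 2.31, and values were computed in Python 3.11 (scipy 1.17.1, pandas 2.3.3, numpy 2.4.6). The recovery of the smallest read numbers and of a set difference was tested on simulated counts without amplified copies. The other steps were not tested in this way.

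The members, gene lists and alternatives were chosen with earlier results of these data known. Named were the core subunits, the tissue isoforms with their partners, *COX7A2L*, the 5 highest and 5 lowest members, the 5 largest differences in each direction, and up to 4 genes of each other list. Other settings tried were 0.1 as the pseudocount, median-of-ratios scaling over genes above 0 in both libraries, only genes of mean 1 TPM or higher, TPM without the 10 most abundant genes, the geometric mean, each library alone and a shorter promoter window. The comparison with genes in the middle range of the members' levels and the one without members that have a copy or a single-exon model were chosen after seeing the data. Mitochondrially encoded genes, the ATP synthase and the other experiments of the study were not analysed here. The values of some single items are not reported here.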

Additional observations from a re-analysis of the deposited data

How the results depend on the processing

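No paired analysis was possible because both libraries carry the same condition. For 30 results, 119 of 127 values under the alternatives were classed as the same, 7 as moved and 1 as changed in sign. Direction and the spread between the libraries do not apply to counts of members and promoter shares. The 7 include the share of the YY1-like string (3.03% to 0%) and the number at least 2-fold higher in Rep1 (3 to 5). The median difference over the members ran from -1.44 to -2.78, and the number at least 2-fold lower in Rep1 from 42 to 54. Scaling by the median of ratios turned the complex I core from -0.96 to 0.22, since it raises Rep1 against Rep2, and gave 5 members in place of 3 that were at least 2-fold higher in Rep1. The share of the library taken by the members was 0.294% to 0.962% between the single libraries. The log2 differences of *COX4I1*, *COX6B1* and *COX7B* from their tissue forms are not given, since those forms were listed at 0 in 1 or both libraries and the pseudocount sets the size. With only the 250 bases before the start, the YY1-like string was in 0 member promoters. CCGGAAG and GCGCANGCG were then each in 13.6% of member promoters (exact binomial interval 6.43% to 24.3%). Over all promoters in that shorter window the shares were 7.46% and 6.67%, inside these intervals. In the longer window the interval for CCGGAAG began just above the share over all promoters, at 10.9% against 10.6%, so this depended on the window. A single library always lies within 1 SD of the mean of 2, and so does the geometric mean of the 2. Those values are counted among the 119 and say nothing about stability. Members at 0 in Rep1, and those resting on few reads there, are limited by its depth, and a listed 0 does not show absence.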
